A study of Mus musculus with 24 samples.

Results

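The immediate early genes described here were Fos, Fosb, Jun, Junb, Atf3, Egr1, Egr2, Nr4a1, Ier2 and Dusp1, 10 of the 55421 genes listed for each library. They were chosen by gene symbol, by matching the Ensembl identifiers of the tables to GENCODE mouse release 21, and all 10 passed the filter on low counts. RNA sequencing was available for uninjured carotid arteries of 24 ovariectomized C57BL/6 mice, aged 9 weeks according to the labels, with 6 mice and 1 library each in 4 groups. Every mouse had been ovariectomized, the controls included, so that no group had hormones from its own ovaries. The control group, named OVX in the labels and vehicle here, received placebo. The E2 group received 17β-estradiol, the main ovarian estrogen. The E4 group received estetrol, an estrogen made by the fetal liver, and the TAM group received tamoxifen, a selective estrogen receptor modulator. The series text gives 3 weeks of treatment, whereas the study's methods give a shorter one. The treatment field of the 6 E4 libraries reads placebo, and their titles, which read E4, were taken as the group. The study's methods describe vehicle, E2 and E4 mice, and the handling of the tamoxifen-treated mice is not given in the sources used here. Libraries are named by group and animal number, such as OVX C2. The animal numbers formed 2 series, numbers up to 20 with 13 libraries and numbers from 24 with 11 libraries, and the labels do not say what these series are.

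Total counts ranged from 24647246 to 64221401 per library, with a median of 45156106, and the lowest count of any member in any library was 280, for Egr2. Expression is given in CPM, that is, counts relative to library totals scaled by edgeR's TMM method. Markers of smooth muscle, endothelium and fibroblasts were present, and none of these 15 genes was at 0 in all libraries of a group. The arteries also carried sympathetic ganglion tissue, whose 10 markers summed to 32.9 CPM in OVX C5 and 232.5 CPM in TAM C35 but to between 2504 and 9166 CPM in the other libraries. E4 C38, the library with the lowest total count, carried thyroid and parathyroid markers at 2955 CPM, against at most 39.1 CPM in the vehicle, E2 and tamoxifen libraries. The tissue was sequenced in bulk, so fewer cells of a type and less RNA per cell cannot be told apart.

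Immediate early genes are transcribed within minutes of a stimulus, from transcription factors already present in the cell such as SRF with its ELK partners and CREB, and without new protein synthesis. Fos, Fosb, Jun, Junb and Atf3 encode subunits of AP-1, a transcription factor made of pairs of leucine zipper proteins, and Egr1, Egr2 and Nr4a1 encode DNA-binding factors of the zinc finger and nuclear receptor families. Ier2 encodes a nuclear protein, and Dusp1 encodes a phosphatase that inactivates the MAP kinases through which the same stimuli act. In arteries, these genes are known to respond to growth factors, stretch, altered flow and injury.

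The promoters of 4 members are shown because Fos and Dusp1 were the members called with E4, because Atf3 passed the p-value threshold there, and because Fosb is the nearest relative of Fos. Each run holds the 250 bases before the RefSeq start (build GRCm38.p6), written 5′ to 3′ on the strand of the gene. Capitals mark TGACG on either strand, which is the first part of the cyclic AMP response element bound by CREB and ATF proteins, and TATAAA. The runs lie at chr12:85473640-85473889 (plus strand) for Fos, chr17:26508473-26508722 (minus strand) for Dusp1, chr1:191183334-191183583 (minus strand) for Atf3 and chr7:19310046-19310295 (minus strand) for Fosb.
Fos: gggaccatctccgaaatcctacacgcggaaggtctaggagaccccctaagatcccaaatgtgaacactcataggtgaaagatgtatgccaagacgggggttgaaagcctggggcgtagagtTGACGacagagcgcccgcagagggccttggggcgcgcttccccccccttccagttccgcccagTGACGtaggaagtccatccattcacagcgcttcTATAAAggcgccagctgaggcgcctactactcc
Dusp1: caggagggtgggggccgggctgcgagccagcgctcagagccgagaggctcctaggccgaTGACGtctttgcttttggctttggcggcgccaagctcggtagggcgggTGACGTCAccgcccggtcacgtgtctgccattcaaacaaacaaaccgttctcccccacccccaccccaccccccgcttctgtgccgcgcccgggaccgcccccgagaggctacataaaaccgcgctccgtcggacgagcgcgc
Atf3: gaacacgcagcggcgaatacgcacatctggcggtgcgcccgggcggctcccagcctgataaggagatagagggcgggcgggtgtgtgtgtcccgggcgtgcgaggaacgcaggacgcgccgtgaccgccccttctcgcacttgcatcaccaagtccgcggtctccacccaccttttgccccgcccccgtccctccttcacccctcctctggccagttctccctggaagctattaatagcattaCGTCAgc
Fosb: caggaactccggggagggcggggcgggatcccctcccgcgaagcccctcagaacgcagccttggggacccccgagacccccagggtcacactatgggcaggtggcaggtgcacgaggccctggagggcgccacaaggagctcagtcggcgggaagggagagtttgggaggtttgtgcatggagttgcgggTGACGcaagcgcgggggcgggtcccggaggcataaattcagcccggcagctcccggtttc

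With the transcript start counted as 0, the TGACG matches of Fos began at -129 and -66 and its TATAAA match at -33. Dusp1 had a TGACG match at -191 and, at -143, the full element TGACGTCA, in which matches on both strands overlap. Atf3 had a single match on the opposite strand beginning at -7, and Fosb had a single match at -60. RefSeq promoters were given for 8 of the 10 members, all but Egr1 and Ier2. In windows from 250 bases before to 50 bases after the start, TGACG on either strand was found in 6 of these 8 promoters (Fos, Fosb, Junb, Atf3, Nr4a1 and Dusp1) and in 20.8% of 32817 promoters. The full element TGACGTCA was found in Dusp1 alone among the 8 and in 1.79% of all promoters. TATAAA was found in Fos and Junb and in 13.6% of all promoters. The CArG box bound by SRF (1.63% of all promoters), the AP-1 site TGACTCA (5.21%), the NR4A element AAAGGTCA (1.51%) and the estrogen response element GGTCANNNTGACC (0.0701%) had no match in the windows of the 8 members, which says only that these letters are not in these windows.

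The members differed in level. On the TPM scale, which divides counts by exon length and then by the library's sum of these, the mean over 24 libraries was 83.0 ± 23.8 (SD) for Nr4a1, 68.7 ± 17.6 for Egr1, 62.5 ± 12.7 for Jun and 61.6 ± 23.8 for Dusp1. The order then ran from Fos (50.9 ± 25.6 TPM) through Atf3 (41.2 ± 19.4), Ier2 (33.3 ± 7.75), Junb (21.3 ± 4.36) and Fosb (15.0 ± 6.66) to Egr2 (9.93 ± 5.39). Jun and Dusp1 were neighbours that did not differ beyond their spread, Jun being the higher of the pair in 11 of 24 libraries. The clearest step was that from Ier2 to Junb, with Ier2 above Junb in 24 of 24 libraries. Dusp1 held the rank after Nr4a1 in vehicle-treated mice (88.7 ± 19.6 TPM, n = 6). Its mean stood behind those of Egr1 and Jun in each treated group, at 43.0 ± 11.8 TPM with E4. With E2 the means of Jun and Dusp1 were close (56.16 ± 10.94 and 55.09 ± 15.45 TPM). Jun was above Dusp1 in 2 of 6 libraries with E2, 5 of 6 with E4 and 4 of 6 with tamoxifen. Fos was above Egr1 in mean TPM in vehicle-treated mice (71.4 ± 26.6 against 67.3 ± 21.4), a difference within the spread. Fos was the higher of the pair in 4 of 6 vehicle libraries, and its mean included OVX C4 at 123.8 TPM. The other vehicle libraries held 51.1 to 69.7 TPM of Fos. In each treated group the mean of Fos was below that of Egr1, with 49.4 ± 26.1 against 58.9 ± 16.4 with E2, 36.3 ± 15.4 against 69.7 ± 14.7 with E4 and 46.6 ± 24.8 against 78.9 ± 15.6 with tamoxifen.

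**Figure D1:**
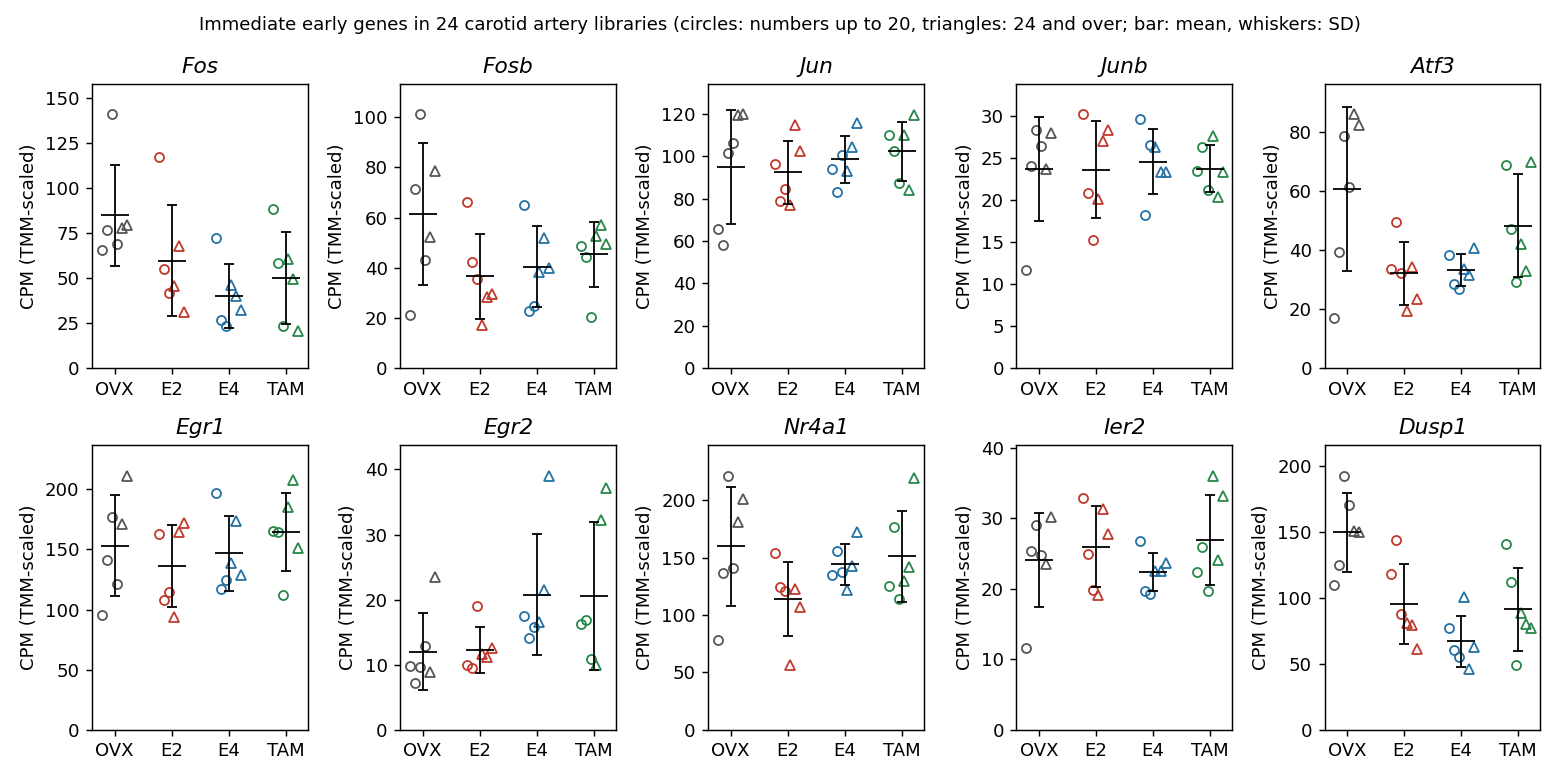
Level of each member in each library, in CPM on linear axes that start at 0, by group, with circles for animal numbers up to 20 and triangles for numbers from 24. Black bars and whiskers are the mean and SD of the 6 libraries. In Dusp1 the highest E4 library (100.8 CPM) lies below the lowest vehicle library (109.6 CPM), while Jun and Junb keep similar means in all groups.

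The treatments were each compared with vehicle in one model of all 24 libraries (edgeR's quasi-likelihood test, Benjamini-Hochberg adjustment over 25033 genes), and a gene was called at an adjusted p-value under 0.05 with an absolute log2 fold change over 1. With E4, 2 of the 10 members were called, Dusp1 and Fos, both with lower expression, against 2.51% of all tested genes (1.69% in the lower direction). At an adjusted p-value under 0.05 with no limit on size, 3 members passed, with Atf3 added, against 22% of all genes. With E2, 0 members were called, against 1.27% of all genes, while 4 members had an unadjusted p-value under 0.05, against 16% of all genes. With tamoxifen, 0 were called, against 0.308% of all genes, and 3 had an unadjusted p-value under 0.05, against 21%. DESeq2 gave an adjusted p-value under 0.05 to Atf3 with E2 (0.0413) and to Dusp1 with tamoxifen (0.0412), but both had absolute log2 fold changes under 1. The median log2 fold change of the 10 members was -0.13 with E4, -0.33 with E2 and -0.04 with tamoxifen, whereas that of all tested genes was -0.014, 0.0060 and -0.0033, respectively. The 3 comparisons share the 6 vehicle libraries, so they are not independent of each other. The p-values set each group difference against the spread between libraries of the same group, as estimated in the single model of all groups.

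**Figure D2:**
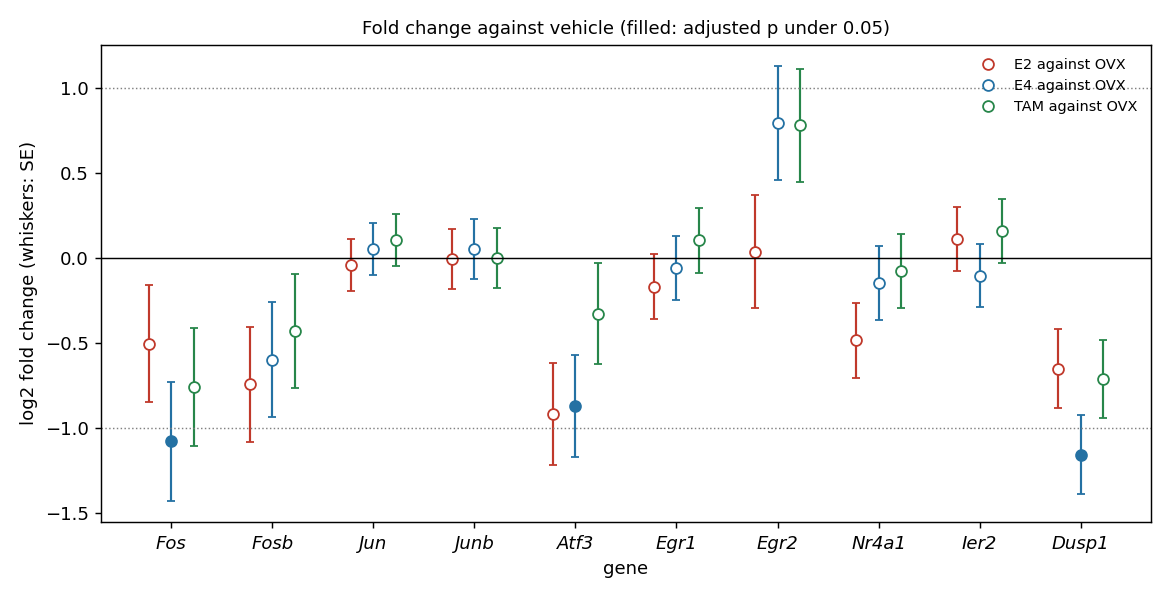
Log2 fold change of each member against vehicle with E2, E4 and tamoxifen, with whiskers of 1 standard error, a solid line at 0 and dotted lines at -1 and 1. Filled points have an adjusted p-value under 0.05, which are Fos, Atf3 and Dusp1 with E4; Egr2 lies above 0 with E4 (0.79) and tamoxifen (0.78) but its points are open.

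Among the AP-1 subunits, Fos (ENSMUSG00000021250, chromosome 12, 85473890 to 85477273, GRCm38) encodes the partner of JUN proteins that cannot pair with itself. In vehicle-treated mice its lowest, median and highest values were 65.7, 77.4 and 141.3 CPM. With E4 these were 23.5, 36.3 and 72.3 CPM. In 5 of 6 E4 libraries Fos was below every vehicle library, the exception being E4 C16, which held the highest E4 value. The mean was 85.0 ± 28.1 CPM (SD, n = 6) with vehicle and 40.3 ± 17.8 CPM with E4, a 2.11-fold lower level (log2 fold change -1.08, SE 0.35, adjusted p = 0.0307). E2-treated mice ranged from 31.0 to 117.4 CPM with a median of 50.3 CPM, and 4 of them were below every vehicle library (log2 fold change -0.51, SE 0.35, adjusted p = 0.542). Tamoxifen-treated mice ranged from 20.8 to 88.4 CPM with a median of 54.1 CPM, and 5 of them were below every vehicle library (log2 fold change -0.76, SE 0.35, adjusted p = 0.213). The vehicle group held a library apart from the rest, OVX C4, without which the estimate for E4 no longer passed the threshold. When each of the 24 libraries was left out in turn, Fos stayed called with E4 in 19 fits and was lost without OVX C3, OVX C4, E4 C19, E4 C20 or E4 C39, with log2 fold changes from -1.33 to -0.87 and adjusted p-values from 0.0132 to 0.0788.

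Atf3 (ENSMUSG00000026628, chromosome 1, 191170296 to 191218039) encodes a stress-induced repressor that pairs with JUN proteins. Its vehicle values spread from 16.8 to 85.9 CPM with a median of 69.8 CPM, whereas the 6 E4 values lay between 26.7 and 40.6 CPM with a median of 32.6 CPM. All 6 E4 libraries and all 6 E2 libraries were below the vehicle median, but both groups overlapped the vehicle group, whose lowest library, OVX C2, was below them all and whose next, at 39.2 CPM, was below the highest E4 library (40.6 CPM) and the highest E2 library (49.6 CPM). The mean fell from 60.7 ± 27.6 to 33.2 ± 5.401 CPM with E4 (log2 fold change -0.87, SE 0.30, adjusted p = 0.0407), which was under the threshold on size. With E2 it was 32.1 ± 10.5 CPM (log2 fold change -0.92, SE 0.30, adjusted p = 0.0897), and without OVX C2 this difference was called (log2 fold change -1.12, adjusted p = 0.00936). With tamoxifen the mean was 48.3 ± 17.4 CPM, between 29.1 and 69.9 CPM (log2 fold change -0.33, SE 0.30, adjusted p = 0.557). The adjusted p-value with E4 stayed under 0.05 in 15 of the 24 fits that left out a library, being 0.0671 without E4 C38, and without OVX C2 the difference was called (log2 fold change -1.06, adjusted p = 0.00492).

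Fosb (ENSMUSG00000003545, chromosome 7, 19302696 to 19310051) encodes a relative of FOS. It was listed at 21.4 to 101.2 CPM (median 61.7) with vehicle, 17.2 to 66.4 CPM (median 32.5) with E2, 22.7 to 64.9 CPM (median 39.2) with E4 and 20.4 to 56.9 CPM (median 49.1) with tamoxifen. All groups overlapped. The log2 fold changes were -0.75 (SE 0.34, adjusted p = 0.268) with E2, -0.60 (SE 0.34, adjusted p = 0.201) with E4 and -0.43 (SE 0.34, adjusted p = 0.487) with tamoxifen. None of these differences passed the test over all libraries. Within the number series, the log2 fold change with E2 was -0.30 in the first (adjusted p = 0.941) and -1.39 in the second (SE 0.24, adjusted p = 0.0476), where it was called with 2 vehicle libraries.

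Jun (ENSMUSG00000052684, chromosome 4, 95049034 to 95052222) encodes the central partner of AP-1 dimers. Its medians were 104.0 CPM with vehicle, 90.4 CPM with E2, 97.4 CPM with E4 and 106.4 CPM with tamoxifen. Vehicle-treated mice covered the widest range, from 58.1 CPM in OVX C3 to 119.9 CPM in OVX C25, and no other library was below 65.5 CPM. Junb (ENSMUSG00000052837, chromosome 8, 84974484 to 84978718), a JUN relative with weaker activating capacity, had means of 23.7 ± 6.19, 23.6 ± 5.78, 24.6 ± 3.88 and 23.7 ± 2.78 CPM with vehicle, E2, E4 and tamoxifen. For both genes the log2 fold change against vehicle was between -0.04 and 0.10 in each treatment, with standard errors of 0.15 to 0.18 and adjusted p-values of at least 0.739. Exons of Jun overlap those of Junos, and exons of Junb overlap those of Prdx2, in each case on the opposite strand. Counting by strand is not stated, so reads of these pairs cannot be told apart, and neither overlapping gene differed in the test (adjusted p of at least 0.468 for Junos and 0.604 for Prdx2).

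Of the zinc finger factors, Egr1 (ENSMUSG00000038418, chromosome 18, 34859823 to 34864984), which binds GC-rich promoters, had means of 153.0 ± 41.9 CPM with vehicle, 136.0 ± 34.3 CPM with E2, 146.7 ± 31.5 CPM with E4 and 164.3 ± 32.3 CPM with tamoxifen. Its log2 fold changes lay between -0.17 and 0.10, and no difference was larger than the spread (adjusted p of at least 0.783). Egr2 (ENSMUSG00000037868, chromosome 10, 67535475 to 67542188), known for its role in myelinating Schwann cells, had the lowest level of the members. It ranged from 7.15 to 23.5 CPM (median 9.74) with vehicle and from 14.1 to 39.1 CPM (median 17.0) with E4. Each E4 library was above the vehicle median, but OVX C25 reached into the E4 range. The mean was 11.98 ± 5.92 CPM with vehicle and 20.7 ± 9.32 CPM with E4 (log2 fold change 0.79, SE 0.33, adjusted p = 0.0884). With tamoxifen it ranged from 9.94 to 37.1 CPM with a mean of 20.6 ± 11.4 CPM (log2 fold change 0.78, SE 0.33, adjusted p = 0.185), and with E2 the mean was 12.3 ± 3.50 CPM (log2 fold change 0.04). Leaving out OVX C25 brought Egr2 with E4 past both thresholds (log2 fold change 1.10, adjusted p = 0.0208), and adjusting for the ganglion markers gave 0.98 (adjusted p = 0.0367). Without E4 C39, the highest E4 library, it was 0.51 (adjusted p = 0.256), and adjusting for the B cell markers gave 0.65 (adjusted p = 0.62).

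Nr4a1 (ENSMUSG00000023034, chromosome 15, 101254269 to 101274795) encodes an orphan nuclear receptor. Vehicle libraries ranged from 78.2 to 221.5 CPM (median 160.8) and E2 libraries from 56.6 to 153.8 CPM (median 121.8). All 6 E2 libraries were below the vehicle median, and the groups overlapped (log2 fold change -0.49, SE 0.22, adjusted p = 0.264). The means with E4 and tamoxifen were 144.1 ± 17.7 and 151.2 ± 39.8 CPM (log2 fold changes -0.15 and -0.08). Ier2 (ENSMUSG00000053560, chromosome 8, 84661331 to 84662852) had means of 24.1 ± 6.67, 25.97 ± 5.73, 22.4 ± 2.75 and 26.9 ± 6.39 CPM with vehicle, E2, E4 and tamoxifen, and no difference from vehicle was larger than the spread (log2 fold changes -0.11 to 0.16, SE 0.19).

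Dusp1 (ENSMUSG00000024190, chromosome 17, 26505590 to 26562128) encodes the phosphatase that limits signaling upstream of the other members. Its lowest, median and highest values were 109.6, 150.2 and 192.7 CPM with vehicle, and 45.8, 61.5 and 100.8 CPM with E4. The groups did not overlap, every E4 library being below every vehicle library, as was the case for the groups of 9.37% of all tested genes. The mean was 149.7 ± 30.0 CPM with vehicle and 67.0 ± 19.5 CPM with E4, a 2.23-fold lower level (log2 fold change -1.16, SE 0.23, adjusted p = 0.00207). E2 libraries ranged from 61.4 to 143.9 CPM with a median of 84.2 CPM (log2 fold change -0.65, SE 0.23, adjusted p = 0.123). Tamoxifen libraries ranged from 48.7 to 140.6 CPM with a median of 84.2 CPM (log2 fold change -0.72, SE 0.23, adjusted p = 0.0844). In both of these groups all 6 libraries were below the vehicle median and 4 were below every vehicle library. Dusp1 stayed called with E4 in each of the 24 fits that left out a library, with log2 fold changes from -1.30 to -1.07 and adjusted p-values from 0.00129 to 0.00733. The lowest E4 value was that of E4 C38, the library with thyroid and parathyroid markers, and without it the log2 fold change was -1.07 (adjusted p = 0.00527). Exons of Ergic1, on the opposite strand, overlap those of Dusp1. Ergic1 moved the other way, with a mean of 78.5 ± 8.30 CPM with vehicle and 99.0 ± 5.03 CPM with E4 (log2 fold change 0.34, adjusted p = 0.005).

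Markers of other cell types were measured beside these differences. All 6 B cell markers tested had lower expression with E4 and were called, and their summed level was 4.88 to 32.4 CPM in vehicle-treated mice against 3.24 to 6.33 CPM in E4-treated mice. With the B cell marker level as a covariate, 0 members were called. The log2 fold change with E4 was then -1.11 for Dusp1 (SE 0.32, adjusted p = 0.126), -1.31 for Fos (SE 0.48, adjusted p = 0.222) and -0.51 for Atf3 (SE 0.44, adjusted p = 0.672). Without the covariate these were -1.16 (SE 0.23), -1.08 (SE 0.35) and -0.87 (SE 0.30). Because the B cell level itself differed between the groups, its part and that of E4 cannot be fully told apart in this fit. The 6 T cell markers summed to 4.68 to 26.03 CPM with vehicle and 2.18 to 5.70 CPM with E4, with a median log2 fold change of -1.68, and 0 of 6 had an adjusted p-value under 0.05. The fibroblast markers summed to 3311 to 4645 CPM with vehicle and 2233 to 3543 CPM with E4, with 3 of 5 markers lower at an adjusted p-value under 0.05, and the part of this shift in the values of the members was not tested. The ganglion markers summed to 32.9 to 6865 CPM with vehicle and 5295 to 9166 CPM with E4, with 0 of 10 at an adjusted p-value under 0.05, and with their level as a covariate Dusp1 (log2 fold change -1.11, adjusted p = 0.00361) and Fos (log2 fold change -1.27, adjusted p = 0.0164) remained called, while Atf3 no longer passed the p-value threshold (log2 fold change -0.76, adjusted p = 0.0767).

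Within the number series, the direction held for the 3 members that passed the p-value threshold with E4. In the first series, with 4 vehicle and 3 E4 libraries, the log2 fold change was -1.22 for Dusp1 (SE 0.33, adjusted p = 0.0358), -1.11 for Fos (SE 0.54, adjusted p = 0.177) and -0.66 for Atf3 (SE 0.43, adjusted p = 0.306). In the second series, with 2 vehicle and 3 E4 libraries, it was -1.10 for Dusp1 (SE 0.26, adjusted p = 0.202), -0.98 for Fos (SE 0.40, adjusted p = 0.354) and -1.25 for Atf3 (SE 0.30, adjusted p = 0.206). Between the series themselves 0 members were called, against 0.0599% of all genes, with 2 members, Jun and Egr2, at an unadjusted p-value under 0.05, against 8.71% of all genes. The difference of the E4 effect between series was not detectable for any member (smallest adjusted p = 0.866), with 0 members and 0% of all genes called and 0 members at an unadjusted p-value under 0.05, against 5.71% of all genes. For E2 the estimate in the second series was below that in the first for all 10 members (differences from -1.36 to -0.01 on the log2 scale), yet 0 members passed the test of this difference (adjusted p = 1), with 1 member, Atf3, at an unadjusted p-value under 0.05, against 3.43% of all genes.

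The treatments were also compared with each other. With E4 against E2, 0 members were called, against 2.47% of all genes, and the smallest adjusted p-value was 0.129, for Egr2 (log2 fold change 0.76, SE 0.33). With only these 2 groups in the model, Egr2 passed the p-value threshold at the same fold change (adjusted p = 0.0399). Fos had a mean of 40.3 CPM with E4 and 59.9 CPM with E2 (log2 fold change -0.57, SE 0.35, adjusted p = 0.268), and Dusp1 had 67.0 and 95.3 CPM (log2 fold change -0.51, SE 0.23, adjusted p = 0.141). With tamoxifen against E2, 0 members were called, against 1.65% of all genes, with log2 fold changes from -0.25 (Fos) to 0.74 (Egr2) and a smallest adjusted p-value of 0.197. With tamoxifen against E4, 0 members were called, against 0.196% of all genes, with log2 fold changes from -0.05 (Junb) to 0.54 (Atf3) and a smallest adjusted p-value of 0.592. At an unadjusted p-value under 0.05 there were 2, 1 and 0 members in these 3 comparisons, against 30.2%, 21.2% and 9.12% of all genes. Fos and Dusp1 were lower with E4 than with vehicle, while a difference between E4 and E2 was not detectable for either. With 1 library left out, the log2 fold change between E4 and E2 ran from -0.82 to -0.27 for Fos and from -0.65 to -0.35 for Dusp1. In the other alternative fits it ran from -0.81 to -0.27 for Fos and from -0.86 to -0.07 for Dusp1.

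The members varied more between mice of the same group than most genes did. The SD of log2 CPM within groups was 0.65 for Fosb, 0.64 for Fos, 0.59 for Atf3 and 0.59 for Egr2. It was 0.42 for Dusp1 and Nr4a1, 0.36 for Ier2, 0.35 for Egr1, 0.34 for Junb and 0.28 for Jun. The median of the members was 0.42, as compared with 0.18 for the 12672 tested genes with a mean of at least 10 CPM, and the members ranked between 77.2% (Jun) and 94.1% (Fosb) of the way up these genes. Fos spanned 6.80-fold over the 24 libraries, from 20.8 CPM in TAM C35 to 141.3 CPM in OVX C4, and Jun spanned 2.06-fold. The vehicle group had the widest SD of log2 CPM for 7 members but the narrowest for Fos (0.40) and Dusp1 (0.29), and Egr2 was widest with tamoxifen (0.79). OVX C2 was the lowest vehicle library for 8 members, whereas OVX C4 was the highest for 5 and OVX C25 for 4. OVX C2 also had the lowest summed smooth muscle markers (2215 CPM, the other vehicle libraries being at 2961 CPM or above) and the highest ganglion markers of its group (6865 CPM). E4 C19 and TAM C13, which were low for the members, also had the highest ganglion markers of their groups (9166 and 8729 CPM), and TAM C13 had the lowest smooth muscle markers (2829 CPM), but in the E4 group the lowest smooth muscle markers were those of E4 C16 (2753 CPM), which was high for the members. In the E2 group the highest ganglion markers were those of E2 C29 (6635 CPM) and the lowest smooth muscle markers those of E2 C9 (2585 CPM). Neither of these was the E2 library that was lowest for the most members, E2 C26. The part of these levels in the values of the members was not tested. Similarly, E2 C26 was the lowest E2 library for 6 members and E2 C6 the highest for 5, E4 C19 was the lowest E4 library for 5 and E4 C16 the highest for 5, and TAM C13 was the lowest tamoxifen library for 6. TAM C35, one of the libraries with few ganglion transcripts, was the highest tamoxifen library for Jun, Atf3, Egr2 and Nr4a1 but the lowest for Fos.

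**Figure D3:**
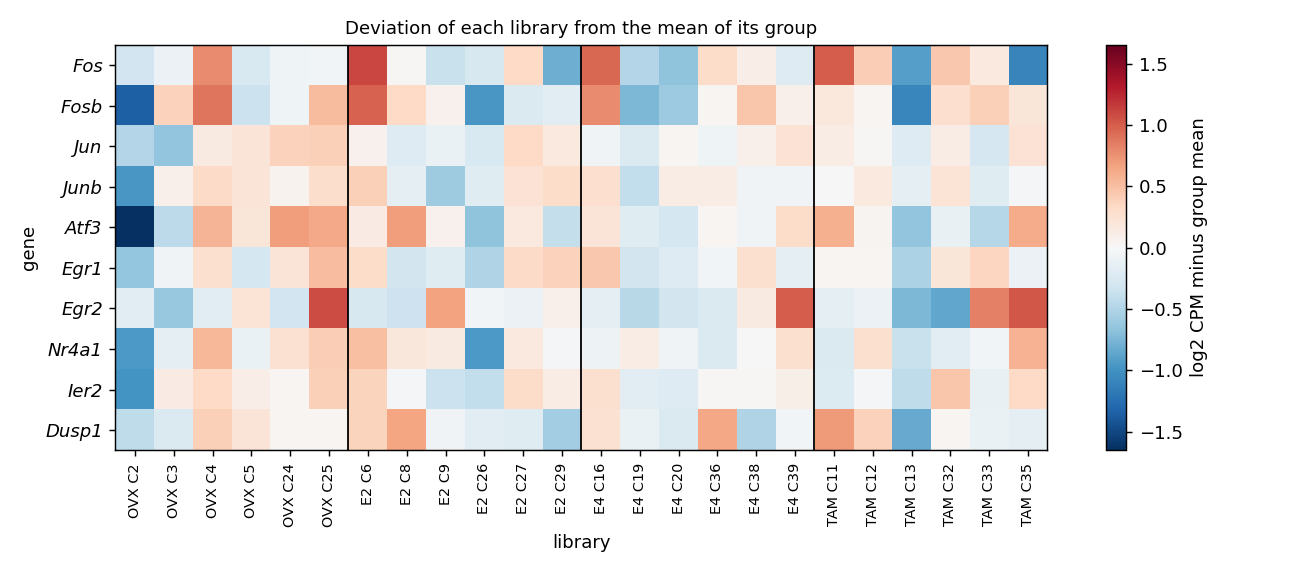
Log2 CPM of each member in each of the 24 libraries minus the mean of its group, in red where above and in blue where below, with vertical lines between groups. OVX C2, E2 C26 and TAM C13 are below or at the group mean in all 10 members, and Egr2 shows its own pattern, with its highest values in OVX C25, E4 C39 and TAM C35.

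Between libraries the members varied together. After subtraction of group means, Pearson's r was above 0 in 42 of the 45 pairs over 24 libraries, and 21 pairs had an adjusted p-value under 0.05 (permutation within groups, 100000 resamples, two-sided, adjusted over 45 pairs). Spearman's rho passed in 15 pairs, all of them among the 21. The strongest relation was that of Junb with Ier2 (r = 0.85, permutation p = 8e-05, adjusted p = 0.0018, and rho = 0.78, permutation p = 0.00014), which gave r = 0.69 without the 2 libraries farthest from the median of Junb. Atf3 went with Nr4a1 (r = 0.77, permutation p = 0.00049, adjusted p = 0.00441, and rho = 0.65, permutation p = 0.0026), with r = 0.75 after the same step for Atf3. Fos went with Dusp1 (r = 0.68, permutation p = 0.00128, adjusted p = 0.0067, and rho = 0.68, permutation p = 0.00094), with r = 0.69 after this step for Fos. Fosb had called pairs with 7 of the 9 other members, Ier2 with 6 and Fos with 3, whereas Egr2 had 0 (its highest r was 0.36, with Jun). Of the 21 pairs, 4 no longer had an unadjusted p-value under 0.05 without the 2 farthest libraries. The median r over member pairs was 0.51, as compared with 0.0024 over all pairs of the 12672 genes with at least 10 CPM, and r was over 0.5 in 53.3% of member pairs and 16.2% of all these pairs. OVX C2 carried much of this relation, since without it 9 pairs passed and the median r was 0.39. With group by series means subtracted instead, 14 pairs passed (median r 0.48). In the first number series alone 10 pairs passed (median r 0.62), and in the second, with 11 libraries, 0 passed (median r 0.24).

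**Figure D4:**
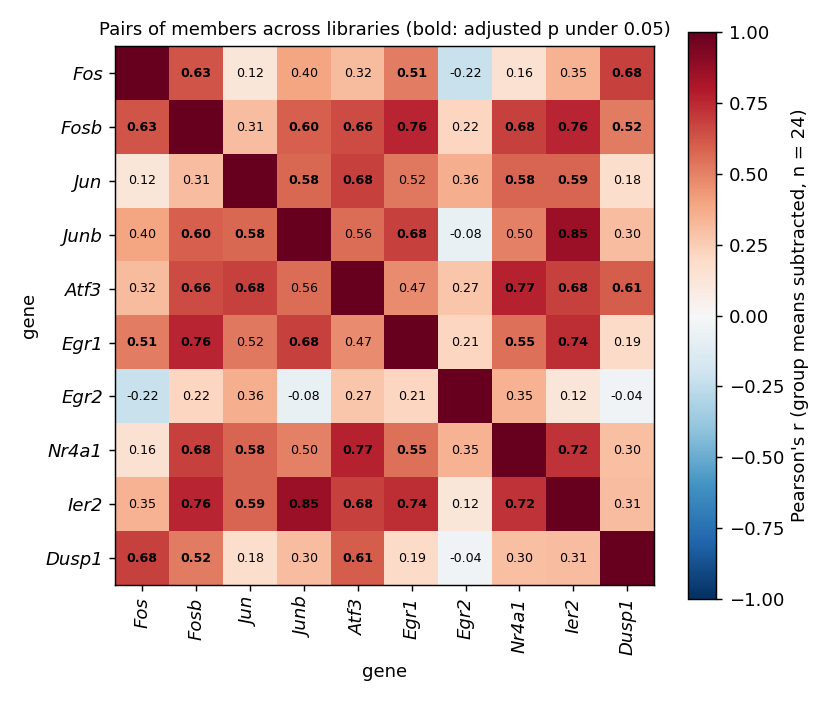
Pearson's r for each pair of members over 24 libraries, computed on log2 CPM after subtraction of group means, on a color scale from -1 to 1, with bold values where the adjusted permutation p is under 0.05. The highest value is that of Junb with Ier2 (0.85), and the row of Egr2 holds no bold value.

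The levels of Fos and Dusp1 were also set against those of other members in the same library. A ratio of 2 genes within a library does not depend on how libraries are scaled. The 5 ratios were chosen after the values had been seen, pairing the members that were lower with E4 with others, so they are given as a description without a test. The log2 ratio of Fos to Egr1 lay between -1.41 and -0.33 in vehicle-treated mice and between -2.40 and -1.45 in E4-treated mice, all 6 of which were below all vehicle libraries. Its mean was -0.85 ± 0.39 (SD, n = 6) with vehicle, -1.94 ± 0.36 with E4, -1.86 ± 0.68 with tamoxifen and -1.28 ± 0.67 with E2. The ratio of Fos to Jun had a mean of -0.16 ± 0.52 with vehicle and -1.39 ± 0.62 with E4, where 5 of 6 libraries were below all vehicle libraries, as were 5 of 6 with tamoxifen (-1.19 ± 0.83). That of Dusp1 to Nr4a1 had a mean of -0.04 ± 0.35 with vehicle and -1.14 ± 0.51 with E4, again with 5 of 6 libraries below all vehicle libraries, as were 5 of 6 with tamoxifen (-0.77 ± 0.58). The ratio of Fos to Fosb differed by -0.59 between E4 and vehicle, with 3 of 6 libraries below all vehicle libraries, and that of Fos to Dusp1 differed by 0.05. Within the number series, the difference in the ratio of Fos to Egr1 with E4 was -1.35 in the first and -0.62 in the second, and that of Dusp1 to Nr4a1 was -1.27 and -0.78.

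**Figure D5:**
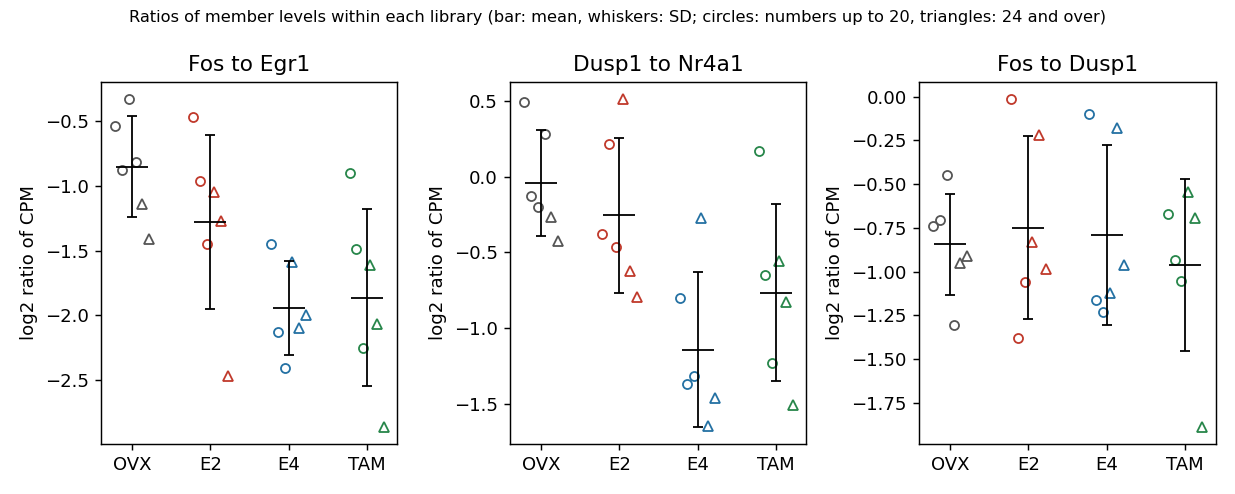
Log2 ratio of CPM within each library for Fos to Egr1, Dusp1 to Nr4a1 and Fos to Dusp1, by group, with circles for animal numbers up to 20, triangles for numbers from 24, and bars and whiskers for mean and SD (n = 6). All 6 E4 libraries lie below all vehicle libraries for Fos to Egr1, and the group means of Fos to Dusp1 lie between -0.96 and -0.75.

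The other genes of these pathways were described from lists written with earlier results of these data known. Over 7 lists with 151 tested genes, 3 were called with E4, all with lower expression, namely Ptgs2, Il1b and Apold1, against 2.51% of all genes called and 1.69% called lower. In these lists 18 genes were higher and 17 lower at an adjusted p-value under 0.05, against 9.52% and 12.5% of all genes. Ptgs2, which encodes the inducible cyclooxygenase, had a mean of 10.1 ± 2.23 CPM with vehicle and 3.47 ± 0.82 CPM with E4, with no overlap between the groups (log2 fold change -1.54, SE 0.29, adjusted p = 0.00153). Apold1, an immediate early gene of endothelial cells, had 11.95 ± 5.64 and 5.96 ± 0.81 CPM (log2 fold change -1.003, SE 0.26, adjusted p = 0.00888). Il1b, the cytokine interleukin-1β, was low at 1.21 ± 0.36 and 0.55 ± 0.33 CPM (log2 fold change -1.19, SE 0.38, adjusted p = 0.0282), and its exons overlap those of Il1bos on the opposite strand. Of the other AP-1 relatives, 0 of 15 were called with E4 and 3 had higher expression at an adjusted p-value under 0.05, with log2 fold changes of 0.64 for Jund, 0.25 for Atf7 and 0.42 for Maf. None of the 5 tested EGR, NR4A and NAB relatives passed the p-value threshold with E4. Of 10 other dual-specificity phosphatases, 0 were called and 1, Dusp3, was higher at an adjusted p-value under 0.05. Among 50 other immediate early genes, 3 were higher and 8 lower at that threshold, with a median log2 fold change of -0.03.

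Among 26 target genes of AP-1 and EGR1, Mmp3, a matrix metalloproteinase, was called higher with E2 and had a mean of 16.3 ± 3.63 CPM with vehicle and 42.8 ± 10.95 CPM with E2 (log2 fold change 1.40, SE 0.18, adjusted p = 2.54e-05), and it was lower with E4 (18.6 ± 3.63 CPM) and with tamoxifen (11.1 ± 2.79 CPM) than with E2. Myocd, an SRF coactivator of smooth muscle, was the only listed gene called with tamoxifen against vehicle (30.7 ± 10.96 against 13.5 ± 3.58 CPM, log2 fold change 1.19, SE 0.21, adjusted p = 0.00818). The smooth muscle markers summed to 2829 to 7912 CPM with tamoxifen (median 3796, highest in TAM C35) and 2215 to 4686 CPM with vehicle (median 3160), and 0 of the 5 passed the p-value threshold in this comparison. With E4 against E2, 4 listed genes were called, all lower, as were 2.25% of all genes out of the 2.47% called in either direction, and besides Mmp3 the rule named Dusp2 (log2 fold change -1.39, adjusted p = 0.0328) and Batf3 (log2 fold change -1.34, adjusted p = 0.00305). The 6 macrophage markers summed to 471.5 to 633.3 CPM with E2, above 252.7 to 460.3 CPM with vehicle. With E4 they summed to 200.1 to 365.8 CPM and with tamoxifen to 258.7 to 318.8 CPM. Their part in the differences of Mmp3, Dusp2 and Batf3 from the E2 group was not tested. With tamoxifen against E4, 0 were called.

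The genes outside the set whose deviations between libraries were most like the mean of the members, among genes with at least 1 CPM, were Btg2 (r = 0.89), Zfp36 (r = 0.86), Nfkbiz (r = 0.81), 1810030O07Rik (r = 0.79), Gm12799 (r = 0.78), Gm9544 (r = 0.76), Ccn1 (r = 0.73) and Tifa (r = 0.71), over the same 24 libraries and as a description. Btg2 and Zfp36 encode a growth-inhibiting cofactor and an mRNA-destabilizing protein, and 4 of the 8 stand in the list of other immediate early genes. With E4, the log2 fold change was -0.65 for Btg2 (adjusted p = 0.0192), -0.87 for Nfkbiz (adjusted p = 0.00187), -0.89 for Ccn1 (adjusted p = 0.0112) and -0.46 for Tifa (adjusted p = 0.00422), all lower and under the threshold on size. Of all tested genes, 12.5% were lower with E4 at an adjusted p-value under 0.05. Zfp36 differed by -0.16 (adjusted p = 0.442), 1810030O07Rik by -0.008 (adjusted p = 0.916), Gm12799 by -0.05 (adjusted p = 0.636) and Gm9544 by 0.19 (adjusted p = 0.304).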

How the data were processed

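The authors deposited, for each of the 24 libraries, a table of estimated counts per gene without normalization. The labels describe polyadenylated RNA libraries of a stranded kit with paired 150-base reads, and the submitters' processing notes name bcl2fastq 2.17, Trim Galore, Bowtie2, featureCounts and the genome build mm10 (GRCm38). The strand and multi-mapping settings are not given in the sources used here. Between 8.87% and 9.8% of the values per library carried decimals, and all were rounded. Of the 55421 identifiers, 55240 were found in GENCODE mouse release 21.

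Counts were tested with edgeR 4.0.16 in R 4.3.3 (quasi-likelihood test, TMM scaling, default filter on low counts, Benjamini-Hochberg adjustment over 25033 genes), with all 24 libraries in a single model of 4 groups without covariates. Standard errors were derived from the F statistic. Log2 CPM used a prior count of 2. Python 3.11.15 and scipy 1.17.1 were used for correlations and figures. Counts were also simulated for all 24 libraries, with changes placed in the E4 group (24788 genes tested). With E4 against vehicle, 84% of the genes changed 2-fold and 97% of those changed 4-fold had an adjusted p-value under 0.05. The limit on size was not applied to these shares, while 4 unchanged genes passed both thresholds. The changed genes were drawn from all genes above a minimum mean count. The shares therefore do not hold for members, whose spread was larger than that of most genes. The alternatives were DESeq2 1.42.0, other size factors, no filter, fits of only the groups compared, either number series alone, marker covariates, other thresholds and leaving out each library. The correlations without OVX C2 were added after the data had been seen.

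The members and the gene lists were chosen with earlier results of these data known. Named beside the 10 members are, for each comparison, up to 3 called genes of the pathway lists in either direction, taken by size of the fold change, and the 8 genes most correlated with the mean of the members; Jund, Atf7, Maf, Dusp3 and the 5 ratios were chosen after their values had been seen. Counts without molecular identifiers are not independent molecules. The result of 1 gene of the target list is not reported here.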

Additional observations from a re-analysis of the deposited data

Results flagged for a closer look

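In 7 of the 40 combinations of a member and a group of 6 libraries, the highest or lowest library lay far from the others by Dixon's criterion, which chance alone gives in about 1 group of 20, or 2 of 40. Fos was at 141.3 CPM in OVX C4 while the other vehicle libraries held 65.7 to 79.6 CPM. Fosb was at 20.4 CPM in TAM C13, below the 44.3 to 56.9 CPM of the other tamoxifen libraries. OVX C2 was apart for Junb, at 11.7 CPM against 23.7 to 28.3 CPM, and for Ier2, at 11.6 CPM against 23.5 to 30.2 CPM. Egr2 had a high library in 3 groups, with 23.5 CPM in OVX C25 against 7.15 to 12.9 CPM, 19.03 CPM in E2 C9 against 9.41 to 12.6 CPM, and 39.1 CPM in E4 C39 against 14.1 to 21.5 CPM. Of these libraries, E2 C9 also held the highest T cell markers of all libraries (135.4 CPM), and OVX C2 the lowest smooth muscle markers (2215 CPM). OVX C4 held the highest smooth muscle markers of the vehicle group (4686 CPM). E4 C39 held the highest smooth muscle (4611 CPM), endothelium (854.7 CPM), fibroblast (3543 CPM) and macrophage markers (365.8 CPM) of the E4 group. It also held the lowest ganglion markers of that group (5295 CPM). TAM C13 held the highest ganglion (8729 CPM) and lowest smooth muscle markers (2829 CPM) of the tamoxifen group. The part of these in the values above was not tested.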

How the results depend on the processing

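No paired analysis was possible because the groups share no animal numbers. The 2 members called with E4 against vehicle became 1 in the first number series alone (Dusp1) and 1 at an adjusted p-value under 0.01 (Dusp1), and 0 in the second series alone and 0 with the B cell covariate. With each library left out in turn this count ranged from 1 to 3, being 1 without OVX C3, OVX C4, E4 C19, E4 C20 or E4 C39. The 0 members called with E2 became 1 in the second series alone (Fosb) and 1 without OVX C2 (Atf3), with a range of 0 to 1. The 21 correlated pairs became 10 in the first series, 0 in the second, 9 without OVX C2 and 14 with group by series means subtracted. The second series holds 11 libraries, 2 of them vehicle, and the cause of the other changes was not tested. With E4 against vehicle, Fos, Dusp1 and Atf3 kept their direction in all 111 alternative fits, 25 of which lost the adjusted p-value.

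Signs changed in values that passed no test. For Junb with tamoxifen (near 0), the log2 fold change was 0.00959 with DESeq2, 0.00959 with RLE scaling, 0.0063 without a filter, 0.00141 with only the groups compared, 0.0508 in the first series, 0.0420 without OVX C5 and TAM C35, 0.0125 with the ganglion covariate and 0.128 with the B cell covariate. For Junb with E2 it was 0.0274 without OVX C5 and TAM C35, 0.00959 with the ganglion covariate and 0.0891 with the B cell covariate. Upper-quartile scaling gave -0.0197 for Jun and -0.0228 for Junb with E4, -0.00365 for Egr2 with E2 and 0.0273 for Egr2 between tamoxifen and E4. In the first series the values were 0.0616 for Jun with E2, 0.125 for Egr1 with E4, -0.0141 for Ier2 with tamoxifen, -0.306 for Atf3 and -0.358 for Fosb between E4 and E2, -0.357 for Fosb and -0.202 for Ier2 between tamoxifen and E2, and -0.000981 for Egr1 and -0.0522 for Nr4a1 between tamoxifen and E4. In the second they were -0.0534 for Ier2 and -0.465 for Egr2 with E2, -0.188 for Jun and -0.0783 for Junb with E4, -0.186 for Jun and -0.0714 for Egr1 with tamoxifen, 0.0388 for Egr2 between tamoxifen and E4, 0.162 for Dusp1 and -0.0651 for Junb between tamoxifen and E2 and -0.0284 for Junb between E4 and E2. The B cell covariate gave 0.132 for Nr4a1 and 0.104 for Ier2 with E4, 0.103 for Nr4a1 with tamoxifen, -0.0330 for Egr2 with E2, and 0.0419 for Egr2 and -0.0294 for Nr4a1 between tamoxifen and E4. Without OVX C5 and TAM C35 the values were -0.0141 for Ier2 between tamoxifen and E2 and, between tamoxifen and E4, -0.0014 for Jun and -0.0763 for Nr4a1. With 1 library left out, ranges that crossed 0 were, with E2, -0.151 to 0.0348 for Jun, -0.145 to 0.0929 for Junb, -0.132 to 0.342 for Egr2 and -0.0348 to 0.184 for Ier2. With E4 they were -0.0575 to 0.128 for Jun, -0.0870 to 0.125 for Junb and -0.166 to 0.0539 for Egr1. With tamoxifen they were -0.00281 to 0.183 for Jun, -0.139 to 0.0577 for Junb, -0.00161 to 0.218 for Egr1 and -0.220 to 0.0365 for Nr4a1. Between E4 and E2 they were -0.0596 to 0.217 for Atf3, -0.0420 to 0.401 for Fosb and -0.0410 to 0.141 for Junb. Between tamoxifen and E2 they were -0.492 to 0.0544 for Fos, -0.228 to 0.0922 for Dusp1, -0.0932 to 0.0884 for Junb and -0.0516 to 0.129 for Ier2. Between tamoxifen and E4 they were -0.275 to 0.268 for Egr2, -0.00151 to 0.106 for Jun, -0.125 to 0.00753 for Junb and -0.0762 to 0.138 for Nr4a1.

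Over all 6 comparisons and 10 members, 1356 of 1440 values with a library left out and 691 of 750 other values kept direction and side of the threshold.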
